A study of Homo sapiens with 4 samples.

Results

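This report describes 10 genes that build the keratin filaments and cell junctions of epithelial cells, out of 61852 genes quantified. Cells given CASM34 are compared with cells given wild-type p53. The genes are the simple keratin genes KRT7, KRT8, KRT18 and KRT19, the claudin genes CLDN3 and CLDN4, the junction membrane gene PERP, and the desmosome genes DSP, JUP and PKP3. The members were given as a list of symbols, and each was found by its gene identifier. Poly(A) RNA was sequenced from H1299, an established cell line of human non-small-cell lung cancer labelled p53-/-. Of its 4 libraries, 2 came from cells given wild-type p53 (p53WT) and 2 from cells given CASM34. The series title speaks of cancer-associated synonymous mutations and the p53 DNA damage response, and the design text calls CASM34 a mutant. The absence of endogenous p53 and the culture in RPMI 1640 with fetal bovine serum are shared by both groups. The labels give no treatment or time, and do not state the vector, promoter or clone behind p53 expression. H1299 without any p53 was not analysed here, and every difference is CASM34 relative to p53WT. Separate cultures are not named in the labels, so the p-values measure only how far these libraries spread, which may be technical. In these bulk libraries fewer cells of a type and less RNA per cell cannot be told apart.

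Keratins are intermediate filament proteins that assemble as pairs of an acidic type I chain (KRT18, KRT19) and a basic type II chain (KRT7, KRT8). Desmosomes anchor these filaments at the cell surface through cadherins, the armadillo proteins plakoglobin (JUP) and plakophilins, and the linker desmoplakin (DSP), while claudins seal the tight junctions nearer the apical surface. PERP is a tetraspan protein of desmosomes and a known transcriptional target of p53.

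Total estimated counts lay between 18086983 and 26906095 per library. The epithelial markers CDH1 and EPCAM had at most 8 counts in any library, and GRHL2, a regulator of epithelial genes, had 0 counts in all 4, which allows at most 0.166 CPM (counts scaled to a common library total) in the shallowest library. Of the 10 lung carcinoma markers examined, only KRT7 and SOX2 were high enough to test, and SFTPB was at 0 in every library. Of 8 leukocyte markers only CD68, which many other cells also express, was tested, and PTPRC, CD3E, MS4A1 and FCGR3A were at 0. The summed level of these 8 was 97.4 and 96.4 CPM in p53WT and 103 and 90.0 CPM in CASM34. Nearly all of it was CD68, at 97.1 and 96.1 CPM in p53WT and 102 and 89.9 CPM in CASM34. The summed level of the 8 fibroblast and endothelial markers ranged from 3.36 to 3.68 CPM for p53WT and from 3.67 to 4.44 CPM for CASM34, and LUM was at 0. Their part in the results below was not tested. Vimentin (VIM), the mesenchymal intermediate filament, was at 3333 and 3225 TPM (a level per transcript length, scaled to a fixed library total) in p53WT and 3735 and 3466 TPM in CASM34.

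None of the 10 genes passed the test of CASM34 against p53WT. H1299 expressed KRT18 and KRT8 at a high level, PERP at a moderate level, and the claudins, plakophilin 3, plakoglobin, desmoplakin, KRT7 and KRT19 at a low level. The largest differences among the genes with more than a handful of reads were CLDN4 and PKP3, whose fitted levels were 1.36-fold and 1.32-fold of p53WT in CASM34 under TMM scaling. PKP3 did not keep that place once GC content and transcript length were fitted, as given below. By edgeR's quasi-likelihood test with Benjamini-Hochberg adjustment over 15965 genes, 0 of the 10 were higher and 0 were lower at an adjusted p under 0.05, where 1.61% of all tested genes were higher and 0.345% were lower (1.95% in either direction). All values of edgeR's adjusted p below come from this fit or, where said, from it with an offset. At an unadjusted p under 0.05, KRT8, CLDN4 and PKP3 were higher and none was lower, where 10.3% of all tested genes were higher and 6.81% lower. DESeq2 and limma-voom also called 0 of the 10, DESeq2 giving an adjusted p for only 3 of them.

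All 10 genes passed the filter on low counts, but KRT19 passed only through its CASM34 libraries, so it is left out of the following counts. In 5 of the other 9 genes both CASM34 libraries lay above both p53WT libraries in CPM, where 24.5% of all tested genes had this order. In none did both lie below, where 23.4% of all tested genes had that order. The fitted log2 fold change was above 0 in 7 of the 9, against 49.8% of all tested genes. The median log2 fold change of the 9 was 0.11, against -0.00055 over all tested genes.

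**Figure D1:**
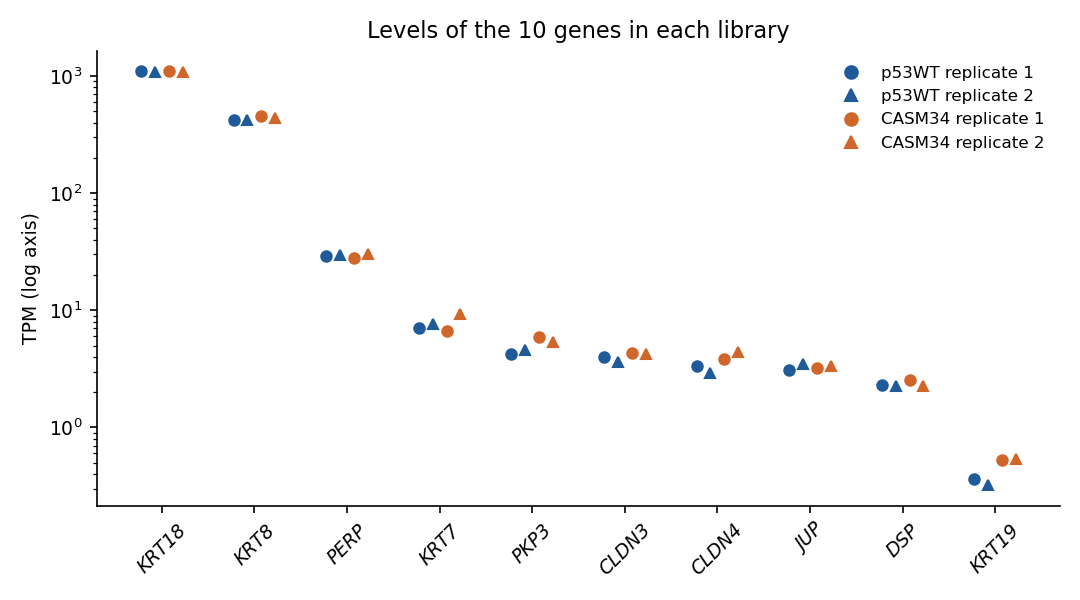
TPM of the 10 genes (log axis) in each of the 4 libraries, 1 point per library, ordered by mean level. KRT18 lies near 1093 TPM and KRT19 under 1 TPM, and for most genes the blue p53WT points and orange CASM34 points lie close together.

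Ordered by mean TPM, the genes ran KRT18, KRT8, PERP, KRT7, PKP3, CLDN3, CLDN4, JUP, DSP and KRT19. The ranges over the 4 libraries did not overlap between neighbours for KRT18, KRT8, PERP, KRT7 and PKP3 at the upper end, nor for JUP, DSP and KRT19 at the lower end. PKP3 overlapped CLDN3, CLDN3 overlapped CLDN4, and CLDN4 overlapped JUP, so the order of these neighbours is not resolved. KRT8 and KRT18 together made up 96.2% to 96.6% of the summed TPM of the 10 genes. KRT18 ranked 144 among the 15965 tested genes by mean TPM, KRT8 ranked 327 and PERP ranked 4515. The other 7 ranked between 9101 (KRT7) and 15083 (KRT19).

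The type I keratin gene KRT18 (ENSG00000111057.11, GRCh38 chromosome 12, 52948871 to 52952901, plus strand) encodes the filament partner of keratin 8. It was at 1096 and 1091 TPM in p53WT and at 1096 and 1091 TPM in CASM34. The groups overlapped fully. Its log2 fold change, CASM34 over p53WT, was 0.012 (SE 0.045, edgeR's adjusted p = 0.924), with a 95% interval from -0.085 to 0.11, or 0.943-fold to 1.08-fold. The estimate turned to -0.074 (edgeR's adjusted p = 0.407) when a trend of each library on GC content and transcript length was removed by an offset, called the GC-length offset from here on.

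The type II keratin gene KRT8 (ENSG00000170421.13, chromosome 12, 52897187 to 52949954, minus strand) was at 420 and 426 TPM in p53WT and at 459 and 442 TPM in CASM34. Both CASM34 libraries were above both p53WT libraries, by a small margin. Its log2 fold change was 0.11 (SE 0.046, edgeR's adjusted p = 0.242), with a 95% interval from 0.010 to 0.21. It was 0.011 with the GC-length offset (edgeR's adjusted p = 0.943). The TPM ratio of KRT8 to KRT18, which compares the filament partners within each library, was 0.383 and 0.390 for p53WT, and for CASM34 it was 0.419 and 0.405. KRT18 transcripts thus outnumbered KRT8 transcripts in every library, and no test was run on the ratio.

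Both genes had fractional counts in all 4 libraries, which RSEM gives where reads are shared among gene models. GENCODE 29 lists 50 copies of KRT8 and 68 of KRT18 by name (KRT8P and KRT18P pseudogenes), of which 17 and 13 had counts here. The KRT8 copies together received 332 and 377 counts in p53WT and 390 and 238 in CASM34, equal to 3.05% and 2.85% of the KRT8 count in p53WT and to 2.63% and 2.43% in CASM34. KRT8P12 alone had 250 and 291 counts in p53WT and 300.0 and 176 counts for CASM34. The KRT18 copies received 0.0651% to 0.137% of the KRT18 count. KRT8 and KRT18 also overlap by 1084 bases on opposite strands in the annotation. The strand setting of the counting is not given in the sources used here, so reads from that overlap may not be told apart.

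KRT7 (ENSG00000135480.17, chromosome 12, 52232520 to 52252186, plus strand), a type II keratin of glandular and lung epithelium, was at 7.10 and 7.65 TPM in p53WT and at 6.64 and 9.26 TPM in CASM34. The CASM34 libraries lay on either side of the p53WT libraries. These values rested on 61.0 to 75.0 counts, and the log2 fold change was -0.11 (SE 0.24, edgeR's adjusted p = 0.855). Without CASM34 replicate 1 it turned to 0.16 and without CASM34 replicate 2 it was -0.39. With all libraries kept it turned to 0.093 with an offset for effective length. The direction thus depended on CASM34 replicate 1 and on how length was handled. The effective length that the authors' run assigned to KRT7 was 406 to 520 bases, while its 14 annotated transcripts run from 292 to 1754 bases. Its antisense neighbour KRT7-AS had at most 1.07 counts. KRT7 also overlaps KRT86 by 2887 bases on the same strand in the annotation, so reads from there may not be told apart. KRT86 had 6 to 9.3 counts.

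KRT19 (ENSG00000171345.13, chromosome 17, 41523617 to 41528308, minus strand), a type I keratin of simple epithelium, had 7 and 4 counts in p53WT and 13 and 9 counts for CASM34. In CPM the p53WT libraries were at 0.322 and 0.155, below the CASM34 libraries at 0.487 and 0.493. With so few reads the 95% interval of the log2 fold change ran from -0.31 to 2.41 around 1.05 (edgeR's adjusted p = 0.425), and no difference was detectable at this depth.

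The other keratins examined mostly fell below the filter on low counts. Of 23 other keratin genes 4 were tested, 8 had 0 counts in every library, and none of the 4 passed in edgeR (at an unadjusted p under 0.05, 0 were higher and 1 lower). At that unadjusted p 10.3% of all tested genes were higher and 6.81% lower, which is the background for each related list below. KRT15 and KRT80, the highest of these other keratins, lay above PERP in TPM in every library. KRT15, a type I keratin best known from basal epithelial cells, was at 40.1 and 39.0 TPM in p53WT and 42.7 and 44.8 TPM in CASM34, and its log2 fold change was 0.097 (SE 0.062, edgeR's adjusted p = 0.461). KRT80, a type II keratin linked to desmosomes, was at 41.2 and 39.5 TPM in p53WT and 37.3 and 37.5 TPM in CASM34. Its log2 fold change was -0.10 (SE 0.045), edgeR's adjusted p = 0.284. The offset moved it to -0.21 (edgeR's adjusted p = 0.0573). KRT15 was at 80.5 to 122 times the TPM of KRT19 within a library, while KRT80 was at 4.05 to 5.80 times that of KRT7. Among all intermediate filament genes examined VIM was the highest, at 2.11 to 2.39 times the summed TPM of the 4 simple keratins, and its log2 fold change was 0.028 (SE 0.045, edgeR's adjusted p = 0.808), or -0.0021 with the offset. The nuclear lamin gene LMNA, the next highest of the other filament and linker genes, was at 585 to 642 TPM, and its log2 fold change was 0.084 (SE 0.046, edgeR's adjusted p = 0.377), or -0.093 with the offset.

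**Figure D2:**
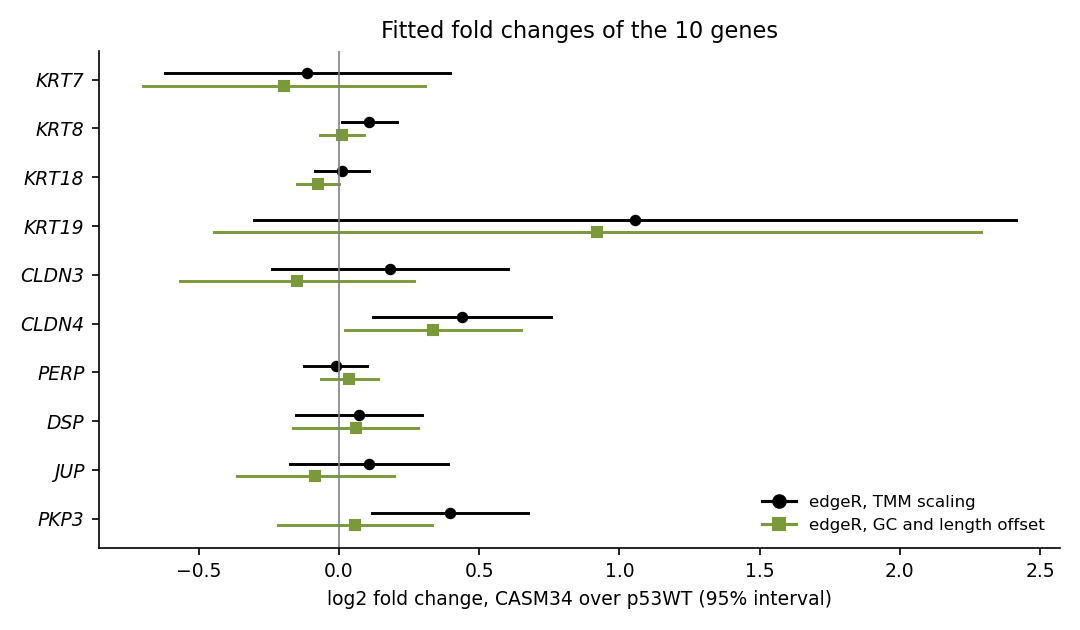
Fitted log2 fold change of the 10 genes, CASM34 over p53WT, with 95% intervals, for the edgeR fit with TMM scaling (black circles) and with the GC-length offset (green squares). The TMM intervals of KRT8, CLDN4 and PKP3 lie above 0, and with the offset only that of CLDN4 does.

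Claudins form the strands of tight junctions, and CLDN3 and CLDN4 are neighbouring genes on chromosome 7. CLDN4 (ENSG00000189143.10, 73799542 to 73832693, plus strand) was at 3.37 and 2.94 TPM in p53WT and at 3.84 and 4.39 TPM in CASM34. On 121 to 189 counts, both CASM34 libraries lay above both p53WT libraries. Its level was 5.34 ± 0.325 CPM in p53WT and 7.24 ± 0.226 CPM in CASM34 (SD, n = 2 each). The log2 fold change of 0.44 (SE 0.15) had a 95% interval from 0.12 to 0.76 and did not pass after adjustment (edgeR's adjusted p = 0.147). With the GC-length offset it was 0.33 (edgeR's adjusted p = 0.360). The sign of CLDN4 held in all 16 alternative settings, with log2 fold changes from 0.30 to 0.49. That was also so for KRT8 and PKP3 in all 16 and for KRT19 in its 15. These settings all draw on the same libraries.

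CLDN3 (ENSG00000165215.6, 73768997 to 73770270, minus strand) was at 3.99 and 3.65 TPM in p53WT and at 4.32 and 4.27 TPM in CASM34, resting on 64 to 95 counts. The CASM34 libraries were above the p53WT libraries, but the difference was within its error, its log2 fold change being 0.18 (SE 0.20, edgeR's adjusted p = 0.690). It turned to -0.15 with the GC-length offset (edgeR's adjusted p = 0.807). The TPM ratio of CLDN4 to CLDN3 was 0.845 and 0.805 for p53WT, and for CASM34 it was 0.889 and 1.03. The genes lie 29271 bases apart.

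CLDN12 and CLDN1 exceeded both in TPM. Of 21 other claudin genes 5 were tested and none passed in edgeR (unadjusted, 1 higher and 0 lower), their median being 0.20 on the log2 scale and 0.044 with the GC-length offset, and 4 had 0 counts in every library. CLDN12 was at 30.4 and 30.6 TPM in p53WT and 29.34 and 29.02 TPM in CASM34 (log2 fold change -0.072, SE 0.050, edgeR's adjusted p = 0.502). CLDN1, a main barrier claudin, was at 14.2 and 13.1 TPM in p53WT and 14.4 and 15.2 TPM in CASM34 (log2 fold change 0.13, SE 0.066, edgeR's adjusted p = 0.337). Of 16 other tight junction genes 13 were tested and none passed in edgeR (unadjusted, 3 higher and 2 lower). Of the 13, 5 lay above and 8 below 0, where 49.8% of all tested genes lay above. The median of the 13 was -0.021, or 0.0049 with the GC-length offset. Their highest members were the scaffold gene TJP1 (ZO-1) at 25.2 to 27.9 TPM and the adhesion gene JAM3 at 20.7 to 24.5 TPM. For TJP1 the log2 fold change was -0.037 (SE 0.047, edgeR's adjusted p = 0.743) and that of JAM3 was -0.14 (SE 0.051, edgeR's adjusted p = 0.195).

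PERP (ENSG00000112378.12, chromosome 6, 138088505 to 138107511, minus strand) was at 29.29 and 29.95 TPM in p53WT and at 28.14 and 30.39 TPM in CASM34, on 1825 to 2558 counts. The CASM34 libraries lay on either side of the p53WT libraries. The log2 fold change was -0.012 (SE 0.052, edgeR's adjusted p = 0.930) with a 95% interval from -0.12 to 0.099, or 0.918-fold to 1.07-fold. With the GC-length offset it was 0.037 (edgeR's adjusted p = 0.807). For comparison the p53 target CDKN1A, which encodes the cell cycle inhibitor p21, rose in the same fit. It was at 278 and 288 TPM in p53WT and 365 and 373 TPM in CASM34, a log2 fold change of 0.38 (SE 0.048, 95% interval 0.28 to 0.49), with edgeR's adjusted p = 0.00274. With the GC-length offset it was 0.27 (edgeR's adjusted p = 0.0335). It no longer passed with the effective length offset in edgeR (adjusted p = 0.175) or in limma on log2(TPM + 1) (adjusted p = 0.260), which called 0 of all genes, at estimates of 0.38 in both. The difference between CDKN1A and PERP was not itself tested.

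The RefSeq table of promoters held 7 windows for 6 of the 10 genes (KRT8, CLDN3, CLDN4, PERP, DSP and JUP, the last with 2 starts). In the 250 bases before each start, 3 motifs were searched on both strands: the GC box GGGCGG, the E-box CACCTG that ZEB and SNAI repressors bind, and the p53 half-site consensus. Matches of a motif may overlap one another. These windows follow RefSeq starts, and several lie partly or wholly in exons of GENCODE 29, with 250 exonic bases for CLDN4, 188 and 233 for the JUP windows, 96 for DSP and 92 for PERP. The KRT8 window holds none but lies inside the annotated span of KRT8, downstream of its outermost start. Shown here, 5′ to 3′ on the gene's strand, with motif matches in capitals, are the part of the PERP window that lies outside annotated exons, because PERP is the p53 target of the set, the KRT8 window, because it held the only half-site match among the 7, and the CLDN3 window, because CLDN3 had the most GC-rich transcript. Coordinates are on GRCh38.p14, all on the minus strand, at chr6:138107512-138107669, chr12:52926470-52926719 and chr7:73770271-73770520.
PERP: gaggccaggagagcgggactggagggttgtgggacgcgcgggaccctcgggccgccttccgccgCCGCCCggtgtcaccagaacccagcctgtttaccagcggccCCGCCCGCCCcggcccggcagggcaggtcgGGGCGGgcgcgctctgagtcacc
KRT8: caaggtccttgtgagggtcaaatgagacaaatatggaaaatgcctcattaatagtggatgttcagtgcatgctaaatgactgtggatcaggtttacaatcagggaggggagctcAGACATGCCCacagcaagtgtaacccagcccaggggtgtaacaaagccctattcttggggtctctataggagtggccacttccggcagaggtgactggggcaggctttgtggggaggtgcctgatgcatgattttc
CLDN3: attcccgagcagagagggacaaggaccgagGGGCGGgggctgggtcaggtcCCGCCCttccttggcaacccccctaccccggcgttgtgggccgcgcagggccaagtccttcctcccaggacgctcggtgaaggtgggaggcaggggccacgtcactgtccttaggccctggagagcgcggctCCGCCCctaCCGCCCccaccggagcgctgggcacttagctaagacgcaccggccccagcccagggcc

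The printed PERP stretch of 158 bases held 4 GC box matches and no half-site or E-box match, and its GC content was 77.2%. The KRT8 window held 1 half-site match and no GC box, with 50.4% GC. The CLDN3 window held 4 GC boxes and 71.6% GC. Among the 7 windows 5 held a GC box, 2 held the E-box (DSP and 1 start of JUP) and 1 held a half-site. Of all 35116 windows of this length in the table, 42.6% held the GC box, 17.5% the E-box and 5.57% a half-site. A match here describes letters only, and no binding was measured.

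Plakophilin 3, plakoglobin and desmoplakin make up the desmosome's cytoplasmic plaque. PKP3 (ENSG00000184363.10, chromosome 11, 392614 to 404908, plus strand) was at 4.21 and 4.58 TPM in p53WT and at 5.90 and 5.38 TPM in CASM34. On 151 to 242 counts, both CASM34 libraries lay above both p53WT libraries, at 9.13 ± 0.102 CPM against 6.94 ± 0.0155 CPM (SD, n = 2 each). Its log2 fold change of 0.40 (SE 0.13) had a 95% interval from 0.12 to 0.67 and did not pass after adjustment (edgeR's adjusted p = 0.137). PKP3 transcripts have a GC content of 68.8%, and with the GC-length offset the log2 fold change was 0.057 (edgeR's adjusted p = 0.901).

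JUP (ENSG00000173801.17, chromosome 17, 41754604 to 41786931, minus strand), which encodes plakoglobin, a relative of beta-catenin, was at 3.11 and 3.47 TPM in p53WT and at 3.24 and 3.37 TPM in CASM34. In TPM the CASM34 libraries lay between the p53WT libraries. In CPM, which does not divide by length, they lay above them, at 8.16 and 8.11 against 7.32 and 7.78. JUP had an estimate of 0.11 on the log2 scale (SE 0.13, edgeR's adjusted p = 0.731), with a 95% interval from -0.18 to 0.39. It turned to -0.0020 with an offset for effective length and to -0.084 with the GC-length offset. CTNNB1, the beta-catenin gene, was at 32.6 to 41.5 times the TPM of JUP within a library.

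DSP (ENSG00000096696.15, chromosome 6, 7541575 to 7586717, plus strand), the gene of desmoplakin, was at 2.32 and 2.24 TPM in p53WT and at 2.55 and 2.24 TPM in CASM34. Its groups overlapped, CASM34 replicate 1 being the highest library and the other 3 lying close together. It has the longest effective length of the set, 8331 to 8818 bases, so its 288 to 502 counts make a low level per length. DSP had an estimate of 0.071 on the log2 scale (SE 0.10, edgeR's adjusted p = 0.778), and it turned to -0.071 without CASM34 replicate 1.

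Of 10 other desmosome genes 4 were tested, and none passed in edgeR (unadjusted, 0 higher and 0 lower). Of the 4, 1 lay above and 3 below 0, where 49.8% of all tested genes lay above. DSG1, DSG4 and DSC3 had 0 counts in every library. The highest were PKP4, a plakophilin relative found at several junction types, at 51.5 and 57.78 TPM in p53WT and 52.98 and 55.36 TPM in CASM34, and PKP2, at 10.7 and 8.59 TPM in p53WT and 9.49 and 9.24 TPM in CASM34. For PKP4 the log2 fold change was -0.088 (SE 0.045, edgeR's adjusted p = 0.345) and that of PKP2 was 0.026 (SE 0.082, edgeR's adjusted p = 0.908). PKP2 was at 1.61 to 2.54 times the TPM of PKP3 within a library. Among the desmosomal cadherins, named here after their values were seen, DSG2 was at 7.01 to 7.88 TPM and DSC2 at 0.82 to 1.07 TPM. Their log2 fold changes were -0.13 (SE 0.065) and -0.16 (SE 0.18), with edgeR's adjusted p = 0.325 and 0.709.

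**Figure D3:**
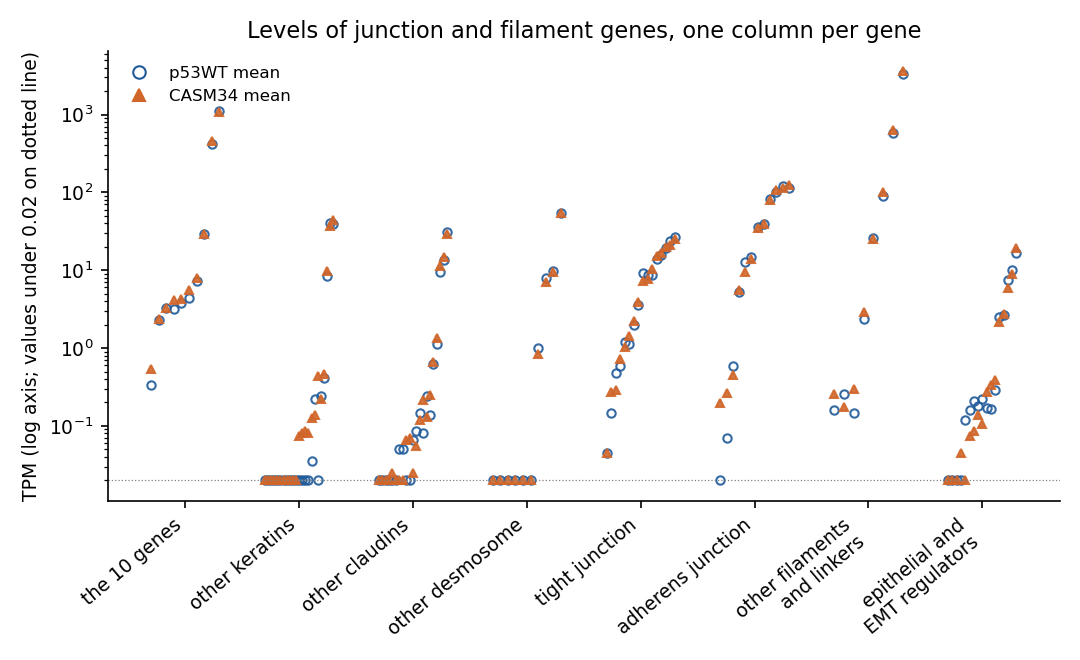
Mean TPM (log axis) in p53WT (open circles) and CASM34 (triangles) of the 10 genes and of 7 lists of related genes, each gene in a column of its own. Values under 0.02 TPM are set on the dotted line, where many of the other keratins, claudins and desmosome genes lie. The 2 groups lie close together for the genes at higher levels.

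None of the adherens junction genes passed in edgeR. Of 12 genes 11 were tested, and NECTIN4 passed the filter on low counts only through CASM34. Of the other 10, 3 lay above and 7 below 0, where 49.8% of all tested genes lay above. The median of these 10 was -0.022 on the log2 scale. At an unadjusted p under 0.05 1 was higher and 0 lower, where 10.3% of all tested genes were higher and 6.81% lower. The highest adherens junction genes were CTNNB1, at 112 to 134 TPM, and the alpha-catenin gene CTNNA1, at 112 to 123 TPM. Their log2 fold changes were -0.052 (SE 0.044) and -0.037 (SE 0.049), with edgeR's adjusted p = 0.599 and 0.751. Of 8 other filament and linker genes all 8 were tested and none passed in edgeR (unadjusted, 2 higher and 0 lower, against the same 10.3% and 6.81%). Of the 8, 7 lay above 0, where 49.8% of all tested genes did, and the median was 0.13. With the GC-length offset 4 of these 8 lay above 0, where 43.5% of all tested genes did, and the median was 0.020.

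Among 17 regulators and markers of the epithelial or mesenchymal state 6 were tested and none passed in edgeR. SNAI2 passed the filter only through CASM34. Of the other 5, 2 lay above and 3 below 0, where 49.8% of all tested genes lay above. At an unadjusted p under 0.05 1 was higher and 1 lower, where 10.3% of all tested genes were higher and 6.81% lower. CDH1, the E-cadherin gene, which is listed with the adherens junction genes, was at 0 counts in the p53WT libraries and at 1 and 2 in CASM34. EPCAM had 3 and 8 counts in p53WT and 2 and 1 counts for CASM34. The splicing regulator gene ESRP1 had 8 and 4 counts in p53WT and 2 and 3 in CASM34. ZEB1, a repressor of epithelial genes, was at 11.4 and 8.90 TPM in p53WT and 8.48 and 9.56 TPM in CASM34 (log2 fold change -0.078, SE 0.083, edgeR's adjusted p = 0.685). TWIST1, another mesenchymal factor, was at 15.2 and 17.6 TPM in p53WT and 18.9 and 20.3 TPM in CASM34 (log2 fold change 0.32, SE 0.099, edgeR's adjusted p = 0.124). With the GC-length offset TWIST1 was at 0.24. ZEB2, named here after its values were seen, went the other way, at 6.96 and 7.85 TPM in p53WT and 5.49 and 6.22 TPM in CASM34. Its log2 fold change was -0.24 (SE 0.085, edgeR's adjusted p = 0.168), or -0.19 with the offset.

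**Figure D4:**
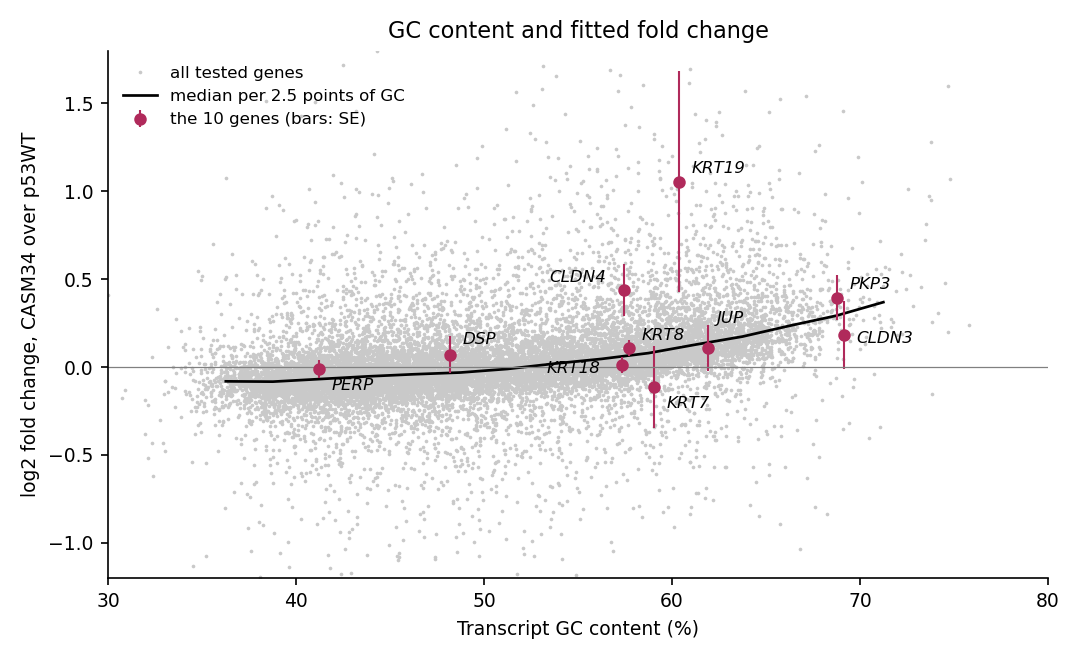
Transcript GC content (percent) and fitted log2 fold change, CASM34 over p53WT, for all tested genes (grey), their median per 2.5 points of GC (line, bins of at least 20 genes) and the 10 genes (bars are SE). Of 15664 genes with a GC value 75 lie outside the axes. The line rises with GC content, and most of the 10 genes lie to the right, where it is above 0.

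GC content moved with the fold changes across the series, and these genes are rich in it. The median transcript GC content of the 10 genes was 58.4%, against 49.5% over 15664 tested genes with a value, and 8 of the 10 lay above that median. The exceptions were PERP at 41.2% and DSP at 48.2%. Over all tested genes the median log2 fold change was -0.057 under 50% GC, 0.065 from 55% to 60%, 0.15 from 60% to 65% and 0.26 at 65% or more. The cause of this trend was not tested. The GC-length offset is fitted to each library and removes such a trend whatever its cause, including any part that goes with the group. With the GC-length offset the median of the 9 genes without KRT19 was 0.011, against -0.019 over all tested genes, and 5 of the 9 lay above 0, where 43.5% of all tested genes did. No member passed with the offset, where 0.138% of tested genes were higher and 0.138% lower, and at an unadjusted p under 0.05 only CLDN4 did, where 12.6% of tested genes did in either direction.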

How the data were processed

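RNA was measured in 4 libraries, grouped by their titles. The submitters' processing notes name Trim Galore, STAR and RSEM, and the build GRCh38, with versions, annotation and strand setting not given in the sources used here. Per the file headers, the authors' tables hold RSEM estimated counts, effective lengths and TPM values for 61852 genes. The estimated counts are not normalized, and the deposited TPM values divide them by effective length and scale each library to a fixed total. Of the gene IDs 61803 matched a symbol by versionless ID, and positions follow GENCODE 29 (GRCh38).

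The estimated counts were rounded and tested in edgeR 4.0.16 (R 4.3.3) by its quasi-likelihood F test, after TMM scaling and the filterByExpr filter (minimum count 10), with a model of group alone. Of all genes 15965 were tested, and p-values were adjusted over all of them by the Benjamini-Hochberg method. The filter asked for 0.419 CPM in at least 2 libraries. CPM values use the TMM factors (0.993 to 1.01). Each standard error is the size of the log2 fold change over the root of its F value, and 95% intervals use the fit's degrees of freedom. Libraries of a group differed by more than counting error (chi-square per degree of freedom 3.86 in p53WT and 3.92 in CASM34). A count of 0 is taken to allow 3 counts, for counting error only.

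Transcript GC content is that of all GENCODE 29 transcripts of a gene. For the GC-length offset, each library's deviation of log2 CPM (prior count 2) from the gene mean was fitted with natural splines of 5 degrees of freedom on GC content and log2 effective length, and 301 tested genes with no GC value took the median. The other alternatives were median-of-ratios and upper-quartile scaling, no filter, a mean of at least 1 CPM, DESeq2 1.42.0, limma-voom and limma 3.58.1 on log2(TPM + 1) and log2(TPM + 0.1), an effective length offset, a replicate block, leaving out each library, and adjusted p thresholds of 0.01 and 0.1. The scripts were tested on simulated data. No gene set test was run.

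The members and lists were chosen with earlier results of these data known. All 10 members are named, and from each related list any gene that passed (up to 3) and the 2 with the highest mean TPM, with CDH1, EPCAM, GRHL2, ESRP1, ZEB1, VIM and CDKN1A named whatever their values. The level of the expressed p53 transcript is not reported here.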

Additional observations from a re-analysis of the deposited data

How the results depend on the processing

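None of the 10 genes passed in any of the 16 alternative settings that could test it, and the lowest adjusted p was 0.0852, for PKP3 with the replicate block. DESeq2 gave no adjusted p for 7 of them, and KRT19 was removed by the mean of 1 CPM. With TMM scaling and no block none was under 0.1, while with the block PKP3 and CLDN4 (0.0997) were. In 20 of 159 member estimates the sign turned. KRT7 was at 0.081 and 0.089 in limma on log2(TPM + 1) and log2(TPM + 0.1), at 0.093 with the effective length offset, and between -0.39 and 0.16 when each library was left out. KRT18 lay at -0.00030 in both limma fits on TPM, -0.0041 with the effective length offset, -0.074 with the GC-length offset and -0.074 with the replicate block and that offset. Leaving out each library gave -0.0075 to 0.028 for KRT18, -0.064 to 0.042 for PERP and -0.071 to 0.18 for DSP. CLDN3 lay at -0.15 with the GC-length offset, with and without the block. PERP lay at 0.037 with the GC-length offset and at 0.041 with the block and that offset. JUP lay at -0.0020 with the effective length offset, -0.084 with the GC-length offset and -0.079 with the block beside it. KRT19, KRT7 and CLDN3 had the fewest counts and the widest intervals.

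The median over the 9 genes without KRT19, 0.11, was 0.081 in limma on log2(TPM + 1), 0.089 on log2(TPM + 0.1), 0.087 with the effective length offset, 0.011 with the GC-length offset, 0.011 with the replicate block and that offset, and 0.087 to 0.13 without each library. No call in the related lists arose with the GC-length offset or with no filter. Over all genes 312 passed. The number was 777 with no filter, 203 by DESeq2, 0 by limma on log2(TPM + 1) or log2(TPM + 0.1), 3 with the effective length offset, 44 with the GC-length offset, 57 at an adjusted p under 0.01 and 712 under 0.1. Leaving out p53WT replicate 1 gave 109 and replicate 2 gave 153, while leaving out CASM34 replicate 1 gave 497 and replicate 2 gave 919.

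The labels give both groups the replicate numbers 1 and 2 without saying that a number marks a shared culture or day. Deviations of same-numbered libraries had a correlation of 0.034 across genes and of 0.088 across genes of at least 10 CPM. With only 2 pairs and no shared origin in the labels, the numbers were not treated as pairs. With the replicate block 1159 genes passed over all genes, and 188 with the block and the GC-length offset, and 0 members passed in either.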

Other observations

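NECTIN4, an adherens junction gene found on many carcinomas, had the largest fold change among the tested genes of the related lists and was picked with its values in view. It had 4 and 4 counts in p53WT and 20 and 12 counts in CASM34, and both CASM34 libraries lay above both p53WT libraries. Its log2 fold change of 2.04 (SE 0.59) did not pass (edgeR's adjusted p = 0.0997), and it was 1.95 with the GC-length offset (edgeR's adjusted p = 0.185). Like KRT19, NECTIN4 passed the filter on low counts only through CASM34. Both the pick and the filter favour a high CASM34 level, so these NECTIN4 values are no evidence of a difference. The linker genes EPPK1 and PLEC were also picked with their values in view, though theirs were not the next largest fold changes. They had log2 fold changes of 0.69 (SE 0.22) and 0.17 (SE 0.052), with edgeR's adjusted p = 0.134 and 0.124. With the GC-length offset EPPK1 lay at 0.31 (edgeR's adjusted p = 0.610). PLEC turned to -0.16 (SE 0.039, edgeR's adjusted p = 0.105).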
